A study of Mus musculus with 2 samples.

Results

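Cytosolic ribosomal proteins are the protein components of the ribosomes that translate messenger RNA in the cytoplasm. Their genes were taken from both gene tables by symbol: Rpl or Rps followed by a number and the usual suffixes, the stalk genes Rplp0, Rplp1 and Rplp2, and Rpsa. The rule found 89 of the 43346 mouse genes measured, 53 named for the large subunit and 36 for the small subunit. Of these, 77 were the canonical genes of the ribosome (46 large, 31 small) and 12 were paralogs or copies of another member. Fau and Rack1, which also encode ribosomal proteins, have other symbols and stand outside the rule.

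The study measured total RNA from the forebrain of mouse embryos of strain B6NCrl at embryonic day 15.5, in a single group with no treatment and no control group. The group had 2 libraries from separate pools of healthy embryos of mixed sex. Replicate 1 was made from 78 embryos and replicate 2 from 62 embryos, each from 10 ng of RNA longer than 200 nt with spike-in RNAs of known amount added. Each value is thus an average over many animals and over every cell type of the tissue, so fewer cells of a type and less RNA per cell cannot be told apart.

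In each ribosome the small subunit reads the codons and the large subunit joins the amino acids, and nearly every ribosomal protein is present in a single copy per particle. Growing cells therefore make these proteins in matched amounts, and the excess of any of them is degraded. Many of their messenger RNAs begin with a run of pyrimidines, the terminal oligopyrimidine tract, through which translation follows the growth signals of the mTOR kinase. The same short, abundant, spliced messenger RNAs have been copied back into the mammalian genome many times as intronless retrocopies, most of them annotated as processed pseudogenes.

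The libraries held 38720511 and 35103430 expected counts, and a TPM is a count per effective length scaled to a fixed sum over all entries. Forebrain markers were present, with Emx1 at 57.2 and 65.2 TPM and Neurod6 at 393 and 385 TPM in replicates 1 and 2, while the midbrain and hindbrain gene En2 and the spinal cord gene Hoxb8 were at 0 in both. Red blood cell RNA was present in both libraries (Hba-a2 at 5025 and 4682 TPM). Ttr, which is made in choroid plexus, was at 761 and 331 TPM, and Folr1, another choroid plexus gene, at 25.2 and 15.6 TPM. Kl, also looked up as a choroid plexus gene, was barely detected, at 0.26 and 0.23 TPM. The part of these cells in the results on the ribosomal protein genes was not tested.

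The sequences printed first show how alike some ribosomal protein genes and their copies are, which bears on where reads were placed. They set windows of 60 coding bases of a canonical gene against those of a copy elsewhere in the genome on which reads were placed. The windows were aligned from the GENCODE M21 transcripts and run 5′ to 3′, with mismatched bases in capitals. Rpl37 (chr15:5116645-5119140), a zinc-binding protein of the large subunit, and Rpl37rt (chr5:115102923-115110268) differed at 1 of 291 aligned bases, and bases 219 to 278 hold it. Rps7 (chr12:28630854-28635953), a protein of the small subunit, and Gm6472 (chrX:152909505-152910155) differed at 3 of 582 bases, of which 2 lie in the window.
Rpl37: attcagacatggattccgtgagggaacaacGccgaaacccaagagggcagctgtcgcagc
Rpl37rt: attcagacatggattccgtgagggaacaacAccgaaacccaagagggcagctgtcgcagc
Rps7: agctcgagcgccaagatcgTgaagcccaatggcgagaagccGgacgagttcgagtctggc
Gm6472: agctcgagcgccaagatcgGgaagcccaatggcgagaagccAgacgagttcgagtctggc

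The ribosomal protein genes were among the most abundant messages of the forebrain. Together they held 4.05% of all TPM in replicate 1 and 4.25% in replicate 2, or 4.15% ± 0.140 (SD, n = 2). All TPM includes the spike-in RNAs, which held 5.96% in replicate 1 and 5.14% in replicate 2. They held a smaller share of the reads themselves, which TPM divides by transcript length, at 1.51% ± 0.0546 of expected counts (SD, n = 2). The median member was at 434 TPM in replicate 1 and 451 TPM in replicate 2, against a median of 4.74 TPM over 21474 protein-coding genes. At 100 TPM or more in both libraries stood 79 of the 89 members, and 74 of the 77 canonical genes, where 7.55% of all protein-coding genes reached that level. At 500 TPM or more in both stood 35 members, all of them canonical. The share of all protein-coding genes at that level was not computed.

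Levels differed by 34.0-fold ± 2.33 (SD, n = 2) between the highest and the lowest canonical gene. Rpl41, which encodes a very short basic peptide at the interface of the subunits, was the highest at 1942 and 2080 TPM. In the large subunit it was followed by Rpl32 at 1113 and 1107 TPM, Rpl37a, a zinc-binding protein, at 923 and 985 TPM, and Rpl36 at 877 and 963 TPM. The order of Rpl41 above Rpl32 exceeded the spread between libraries, while the ranges of Rpl37a and Rpl36 overlapped, although Rpl37a was the higher in each library.

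Rps19, the gene most often mutated in Diamond-Blackfan anaemia, led the small subunit at 1226 and 1330 TPM. Rps29, a zinc-binding protein of the small subunit head, followed at 1008 and 1107 TPM, and Rps14 at 996 and 1058 TPM. Rps29 was above Rps14 in each library, although the ranges of the libraries overlapped.

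At the lower end of the canonical genes, 3 large-subunit genes lay below 100 TPM in both libraries. Rpl5 was at 59.97 and 58.32 TPM, Rpl27a at 71.8 and 69.0 TPM, and Rpl12 at 79.2 and 81.5 TPM, and the 3 did not overlap. The next canonical gene was Rpl27 at 119 and 130 TPM. In the small subunit the lowest canonical gene was Rps23 at 149 and 147 TPM, followed by Rps12 at 162 and 171 TPM. Below every canonical gene lay copies within the symbol rule: Rps3a2 at 5.97 and 4.93 TPM, Rps3a3 at 1.62 and 1.43 TPM and Rpl6l at 1.2 and 0.5 TPM, all annotated as pseudogenes.

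**Figure D1:**
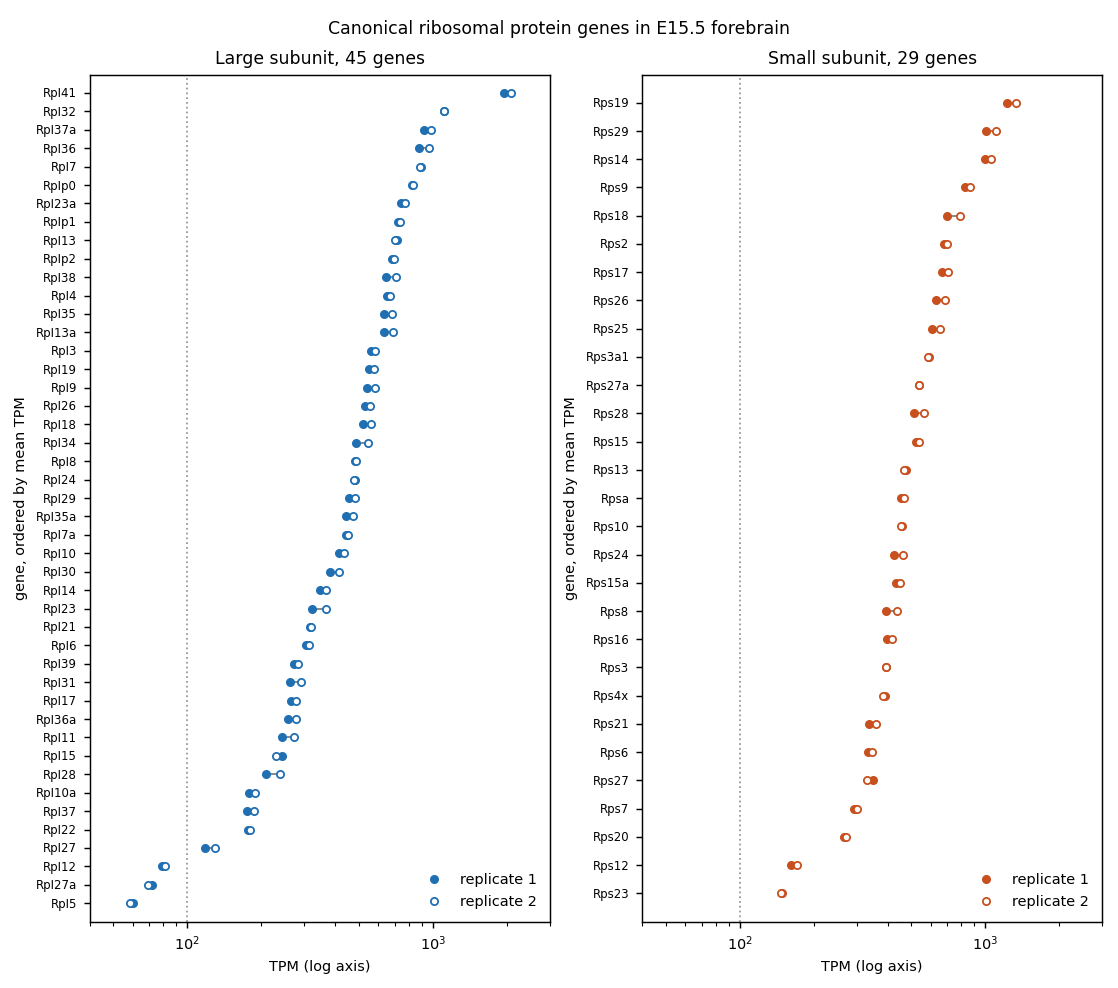
TPM of 45 large-subunit and 29 small-subunit canonical genes on a log axis, ordered by mean, with filled points for replicate 1 and open points for replicate 2; the dotted line marks 100 TPM. All genes drawn but Rpl12, Rpl27a and Rpl5 lie to the right of the line, and the 2 libraries differ little beside the range over genes.

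The subunits stood at nearly the same level. The median canonical gene was at 470 TPM in the large and 477 TPM in the small subunit in replicate 1, and at 480 and 468 TPM in replicate 2, so the order of the medians turned between libraries. The log2 difference of medians, large minus small, was 0.01 ± 0.04 (SD, n = 2) over canonical genes. Over all 89 members, with the 7 large-subunit and 5 small-subunit copies included, it was -0.08 ± 0.01. With 2 libraries the smallest two-sided p of an exact sign-flip test is 0.5, so no test was made here or for the other differences, which are set against the spread between libraries. Over canonical genes, levels varied more within the large subunit, where the SD of log2(TPM + 0.1) was 1.04, than within the small subunit, where it was 0.71. The lowest large-subunit genes had most of their combined reads on copies, as given below. The SD of each subunit with copies added was not computed.

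Genes of the functional sites of the ribosome spanned wide ranges. In the stalk, which recruits the GTPases of elongation, Rplp0 was at 820 and 831 TPM, Rplp1 at 719 and 735 TPM and Rplp2 at 685 and 694 TPM, while Rpl12, which sits at the stalk base, was at 79.2 and 81.5 TPM. The 7 genes at the exit of the peptide tunnel ranged from 271 TPM for Rpl17 to 756 TPM for Rpl23a in the mean of the libraries. The 4 genes at the decoding site and messenger RNA entry ranged from 148 TPM for Rps23 to 689 TPM for Rps2. With the TPM of copies added, Rps23 was at 1018 TPM, Rps2 at 717 TPM and Rpl12 at 256 TPM. With the combined reads on the length of the canonical gene, Rps23 was at 575 and 587 TPM, below Rps2 at 706 and 724 TPM. Rpl5 and Rpl11, which carry the small ribosomal RNA of the large subunit and can bind the p53 regulator Mdm2, differed from each other, with Rpl11 at 244 and 272 TPM against 59.97 and 58.32 TPM for Rpl5. With the TPM of their near-identical copies added, Rpl5 was at a mean of 428 TPM and Rpl11 at 434 TPM, and with the combined reads on the length of the canonical gene Rpl5 was at 296 and 320 TPM and Rpl11 at 368 and 402 TPM. Rps27a, which is translated as a fusion with ubiquitin, was at 535 and 539 TPM.

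Ribosomal protein genes outside the symbol rule lay in the same range. Fau, a fusion with a ubiquitin-like protein, was at 391 and 420 TPM, and Rack1 at 394 and 399 TPM. The 4 X-linked members lay between 268 TPM (Rpl36a) and 425 TPM (Rpl10). The 21 listed genes of Diamond-Blackfan anaemia had a median of 456 TPM, near the 443 TPM of all members, and ran from Rpl5 to Rps19.

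The wider machinery was lower. Mitochondrial ribosomal protein genes, which encode the ribosome of the organelle, had a median of 76.9 TPM in replicate 1 and 72.7 TPM in replicate 2 over 77 genes, from Mrpl1 at a mean of 13.7 TPM to Mrps21 at 256 TPM. The cytosolic members exceeded them by 2.58 ± 0.10 on the log2(TPM + 0.1) scale (SD, n = 2), or 5.96-fold. Together the mitochondrial set held 0.676% of TPM. Among 13 translation factors with pyrimidine-tract messages the median was 261 TPM, from Eif3f at 71.3 TPM to Eef1a1, the factor that brings aminoacyl-tRNA to the ribosome, at 3251 TPM. The 22 ribosome assembly factors had a median of 47.3 TPM, from Bysl at 27.5 TPM to the nucleolar chaperone Npm1 at 416 TPM. The 12 genes of RNA polymerase I transcription had a median of 25.8 TPM (Ttf1 8.08, Polr1d 94.2), and the 10 genes of the S6 kinase and mTOR list a median of 16.5 TPM (Rps6ka3 3.05, Eif4ebp2 78.1).

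The 8 pairs of a canonical gene and a named paralog fell into those where both genes were expressed and those where the paralog was near or at 0. Rpl22 and Rpl22l1 had like levels in TPM, with Rpl22 at 176 and 180 TPM and Rpl22l1, whose protein can replace Rpl22 in the ribosome, at 177 in both libraries. Their log2 ratio was 0.01 ± 0.02 (SD, n = 2), within the spread between libraries, but on reads without length correction it was 0.99. These are totals of all transcripts: coding transcripts held 95.2% and 94.4% of Rpl22 but 70.2% and 61.0% of Rpl22l1. Rpl36a, on the X chromosome, was at 258 and 278 TPM, and its autosomal copy Rpl36al at 271 and 290 TPM, a log2 ratio of -0.07 ± 0.00 with the same sign in both libraries.

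Rps27 was at 349 and 330 TPM and Rps27l, a p53 target in other cells, at 276 and 300 TPM. Their log2 ratio was 0.24 ± 0.14, and on reads without length correction the sign turned, at -1.12. Of the combined reads of Rps27 and its copies, 79.99% and 82.19% lay on the copies, with which Rps27 was at a mean of 1181 TPM against 288 TPM for Rps27l. With the combined reads on the length of the canonical gene, Rps27 was at 1745 and 1855 TPM. Here the model of the canonical gene, at 255 nt, was shorter than that of its copy Rps27rt, at 370 nt. Rpl7 exceeded Rpl7l1, which acts in ribosome assembly, by 3.40 ± 0.03 on the log2 scale, at 899 and 889 TPM against 83.7 and 85.3 TPM, and by 1.54 on reads without length correction. Rps4x was at 389 and 383 TPM and Rps4l, annotated as a transcribed processed pseudogene, at 106 and 102 TPM, a log2 ratio of 1.89 ± 0.02.

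The remaining paralogs are known from muscle and testis, and each had almost no reads. Rpl3l, the paralog of striated muscle, had 1 read in replicate 1 and 0 in replicate 2, while Rpl3 was at 562 and 583 TPM. Rpl39l, a testis paralog, had 2 reads in each library, while Rpl39 was at 273 and 282 TPM. Rpl10l, the intronless copy of the X-linked Rpl10 that is used in the male germ line, had 0 reads in both. With 3 reads per library as the limit that a count of 0 allows, Rpl10 at 416 and 434 TPM was at least 2997-fold higher in replicate 1 and at least 2877-fold higher in replicate 2. Such a limit covers counting error only.

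**Figure D2:**
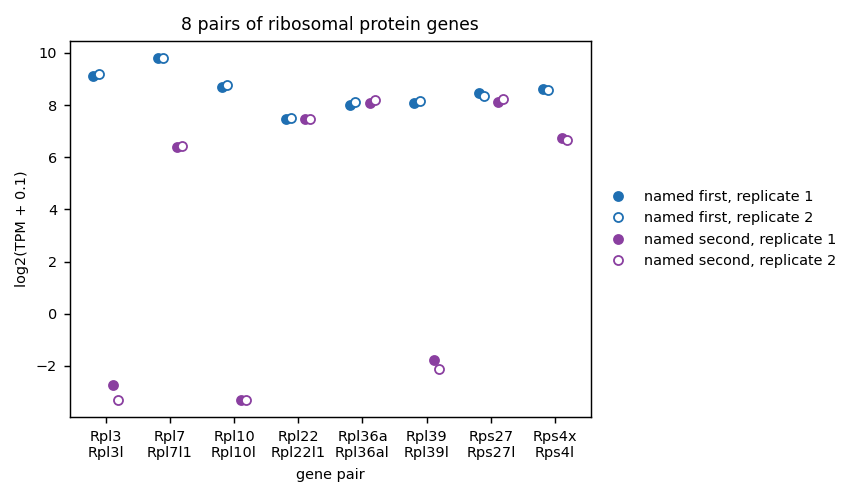
log2(TPM + 0.1) of both genes in each of the 8 pairs, with the gene named first in blue, the gene named second in purple, filled points for replicate 1 and open points for replicate 2. Rpl22l1, Rpl36al and Rps27l lie beside their partners, Rpl7l1 and Rps4l lie lower, and Rpl3l, Rpl10l and Rpl39l lie near or at the bottom.

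The genes of the 3 pairs with close levels differ from each other at many coding bases, as these windows of 60 bases show with mismatches in capitals. Rps27 also has the copy Rps27rt, with 0 mismatches to it over 252 aligned coding bases. They were aligned from the same transcripts and placed where mismatches are densest. Over the coding sequence, identity was 75.5% for Rpl22 (chr4:152325742-152334071) and Rpl22l1 (chr3:28805436-28807424), 87.7% for Rpl36a (chrX:134585654-134588062) and Rpl36al (chr12:69182731-69184083), and 79.1% for Rps27 (chr3:90212522-90213651) and Rps27l (chr9:66946086-66949516).
Rpl22: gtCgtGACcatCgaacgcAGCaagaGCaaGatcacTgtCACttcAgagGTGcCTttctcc
Rpl22l1: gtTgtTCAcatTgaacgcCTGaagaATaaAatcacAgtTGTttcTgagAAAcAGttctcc
Rpl36a: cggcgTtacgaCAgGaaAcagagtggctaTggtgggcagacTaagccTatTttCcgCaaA
Rpl36al: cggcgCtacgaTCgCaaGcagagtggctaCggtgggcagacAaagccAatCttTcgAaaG
Rps27: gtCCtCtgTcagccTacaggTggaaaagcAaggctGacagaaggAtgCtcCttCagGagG
Rps27l: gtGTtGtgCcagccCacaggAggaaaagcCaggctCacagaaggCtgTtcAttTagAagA

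For some canonical genes, most of the combined reads of the gene and its copies were placed on the copies. Reads were counted over whole genes, so the share of reads within the coding sequence was not measured. A search of the M21 transcripts with the coding sequence of each canonical gene found 684 loci outside the gene that matched at 90% identity or more over at least 80% of the coding sequence and whose transcript was no more than 2 times as long as that of the gene. They belonged to 72 of the 77 genes, and 671 were annotated as pseudogenes. Rpl21 had the most, 54, and Rps9, Rplp2, Rpl8 and Rps3 were among those with none. Of the 684, 309 had reads in both libraries and 243 had none in either. Together they held 1.23% ± 0.0509 of TPM and 15.3% ± 0.0711 of the combined reads of the canonical genes and their copies (SD, n = 2).

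The signal lay in few of them. At 100 TPM or more in both libraries stood 25 copies of 24 canonical genes, and 22 of the 25 were annotated as pseudogenes. In 18 of the 25 the coding sequence was identical to that of the canonical gene over its full length. Gm14303, a copy of Rps29, was the highest at 1261 and 1326 TPM. Rps23-ps1 was at 849 and 879 TPM, and Rps27rt, annotated as protein-coding, at 803 and 876 TPM. These 3 exceeded their canonical genes in TPM in both libraries.

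For 15 canonical genes the summed TPM of the copies exceeded that of the gene itself in both libraries, and for 7 genes the copies held over 50% of the combined reads in both. Those 7 were Rps27, Rps23, Rpl27, Rpl15, Rpl5, Rpl27a and Rpl12. They included the 4 lowest canonical large-subunit genes and the lowest canonical small-subunit gene. The share on copies rises as a gene's own reads fall, so this choice favours genes with low values. Rpl5 had a mean of 59.1 TPM alone and 428 TPM with its copies, of which Gm15500 held 356 and 380 TPM in replicates 1 and 2. Rpl27a had 70.4 TPM alone and 413 TPM with its copies, and its copy Gm7536 was at 328 and 342 TPM. Rpl12 had 80.3 and 256 TPM, and its copy Gm10275 was at 165 and 186 TPM. Rps23 had 148 TPM alone and 1018 TPM with its copies. With the copies, Rps23 ranked 12 of 77, and Rpl5, Rpl27a and Rpl12 ranked 61, 62 and 76. These totals and ranks rest on the short models of the copies. With the combined reads on the length of the canonical gene, Rps23 was at 575 and 587 TPM, Rpl5 at 296 and 320 TPM, Rpl27a at 188 and 192 TPM and Rpl12 at 187 and 198 TPM, with ranks of 36, 70, 76 and 75.

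With the copies added, all 77 canonical genes stood at 100 TPM or more in both libraries. The SD over the canonical genes of log2(TPM + 0.1) was 0.929 for the genes alone and 0.693 with their copies, and the ratio of the highest to the lowest was 34.0 and 13.2. The median of the 7 genes with most reads on copies was 124 TPM alone and 875 TPM with the copies, against 551 and 556 TPM for the 44 genes whose copies held under 5% of combined reads in both libraries. With the combined reads on the length of the canonical gene the medians were 495 TPM for the 7 and 555 TPM for the 44. Adding values can only raise a gene, so the upward direction carries no information. The low level of the 7 genes alone is partly set by how they were chosen, since few reads on the gene raise the share on copies. The figures describe where the reads were placed.

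**Figure D3:**
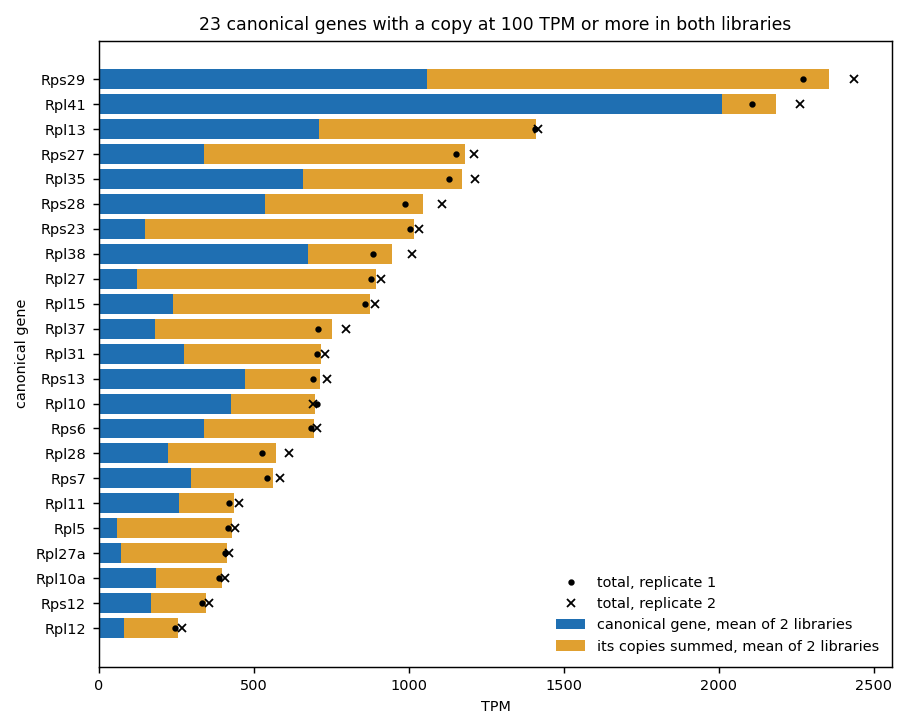
TPM of 23 canonical genes with a copy at 100 TPM or more in both libraries, with the gene in blue and the sum of its copies in orange as means of 2 libraries; dots and crosses mark the totals in replicates 1 and 2. For Rps23, Rpl27, Rpl5 and Rpl27a most of the bar is orange, while Rpl41 is mostly blue.

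**Figure D4:**
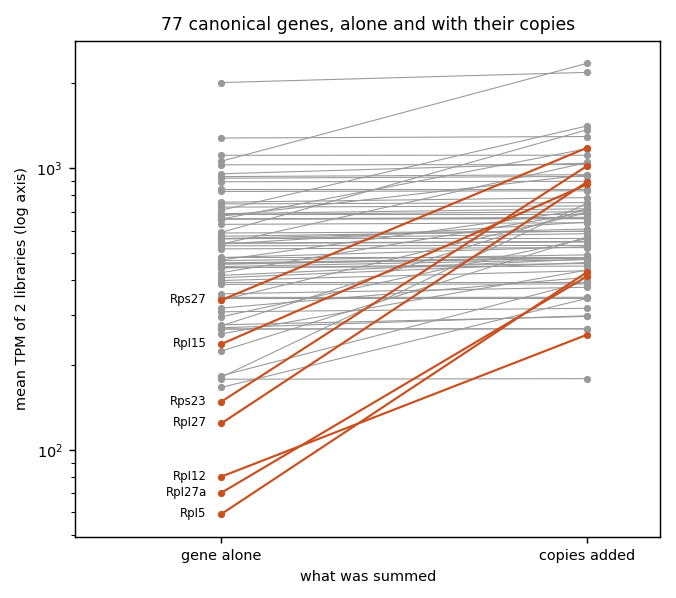
Mean TPM of the 77 canonical genes on a log axis, alone and with the TPM of their copies added, with lines joining each gene. The 7 genes in orange, whose copies held over 50% of combined reads, lie between 59.1 and 340 TPM alone and between 256 and 1181 TPM with the copies.

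The models of the high copies were short. The 25 copies at 100 TPM had models a median of 3 nt longer than the coding sequence alone, and 18 of the 25 lay within 10 nt of it. TPM divides reads by the length less 99 nt, so short models gain more TPM per read. Gm14303, with a model of 171 nt, had 2125 and 2054 reads, while Rps29, with a mean model of 390 nt, had 6868 and 6930 reads, yet the copy was higher in TPM. The copies of Rps29 thus held 23.7% and 22.9% of the combined reads but more TPM than the gene. When all reads were put on the length of the canonical gene, the SD over genes was 0.701.

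The quantification gave its own measure of how firmly reads were placed. The posterior SD of the count was a median of 0.0991% of the count for the 44 canonical genes with under 5% of reads on copies, and 2.84% for the 7 genes with over 50%. Among the 25 high copies it reached 18.2% of the count in replicate 1 for Rpl15-ps3, the copy of Rpl15 at 593 and 656 TPM. Rpl15 and Rpl15-ps3 are identical over the coding sequence, but the posterior SD of Rpl15 itself was only 1.34% and 1.44% of its count. Rpl15 had 14 copies, and which of these loci shared reads with Rpl15-ps3 was not tested. The posterior SD covers the sharing of reads under the deposited gene models, and whether a read came from the gene or from a copy was not tested otherwise.

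Most members were represented by a single leading coding transcript. Among 81 members with a gene mean of 1 TPM or more and an annotated coding transcript, the leading one held a median of 93.8% of the gene. Among the 60 of these members with several transcripts the median was 81.0%. No leading share differed by over 10 percentage points between the libraries. Over the 60 members, retained-intron transcripts held a median of 0.785%, and 7 members had over 10% there. Transcripts marked for nonsense-mediated decay, the pathway that removes messages with early stop codons, held over 5% in 5 members. Transcript shares over all genes were not computed, so whether these values and counts are particular to the family cannot be told.

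In 17 members the leading coding transcript held under 60% of the gene, and the share of all genes below that level was not computed. The lowest was Rpl35, with 6.06% and 4.88% on its coding transcript of 946 nt and 84.96% and 84.41% on a noncoding processed transcript of 541 nt. Rps20 had 7.09% and 7.12% on a coding transcript of 3706 nt and 90.9% and 91.7% on a retained-intron transcript of 582 nt. By reads the coding share was larger, at 10.5% for Rpl35 and 36.4% for Rps20 in the mean of the libraries. In both genes the noncoding model was the shorter.

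Rpl12, whose protein sits at the stalk base, had 15.9% and 17.3% on its coding transcript and 55.7% and 60.4% on a transcript marked for nonsense-mediated decay. Rpl5 had 51.6% and 47.2% on its leading coding transcript and 47.8% and 51.1% on retained-intron transcripts. Both are among the 7 genes with most reads on copies. Rpl23 had 38.6% and 35.1% on its leading coding transcript, Rpl11 had 47.9% and 49.9%, and Rpl15 had 49.97% and 48.88%, with the rest of Rpl15 on other coding transcripts. Rpl13a had 24.3% and 22.3%, but its other transcripts are not in M21 and have no type here.

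Among abundant genes, Rps19 had 21.3% and 22.0% on retained-intron transcripts and 10.1% and 10.6% on transcripts for nonsense-mediated decay. Rpl10a, whose orthologs splice into a decay-prone form, had 22.8% and 25.5% and 15.8% and 14.5% on these types. In each the libraries differed by less than 3 percentage points.

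Letters around the annotated starts were compared with all promoters of the same length. RefSeq promoters of GRCm38.p6, from 250 bases before to 50 after the start, matched 64 of the 89 members, 57 of them canonical. Runs of 8 or more C or T that begin with C within 20 bases of the start were sought on the strand that reads as the RNA. Such a run was found in 27 of the 57 (47.4%) and in 14.4% of 27025 promoters. With the first C within 5 bases of the start the shares were 31.6% and 4.38%. The following windows from 30 bases before to 20 after the start show such runs in capitals for genes with long tracts.
Rpl7a, chr2:26910777-26910826, plus strand: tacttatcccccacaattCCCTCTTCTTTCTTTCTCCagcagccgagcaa
Rpl35, chr2:39005112-39005161, minus strand: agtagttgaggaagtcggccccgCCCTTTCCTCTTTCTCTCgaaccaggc
Rpl15, chr14:18270967-18271016, minus strand: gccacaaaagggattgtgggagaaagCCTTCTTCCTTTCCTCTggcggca
Rps18, chr17:33955646-33955695, minus strand: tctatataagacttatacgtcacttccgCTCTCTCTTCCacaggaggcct

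Short motifs were searched on both strands. CCGGAAG, the core bound by ETS family factors, was found in 23 of the 57 canonical promoters (40.4%) and in 9.12% of all. AAGATGG, the core of YY1, was found in 8 (14.0%) and in 6.48% of all. In the 250 bases before the start, TATAAA was found in 2 (3.51%) against 13.0% of all, and CCAAT in 16 (28.1%) against 34.5%. These are matches of exact letters in fixed windows, and binding was not measured. Variants of a motif were not counted, such as the letters tatataag in the Rps18 window above.

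Between the 2 pools the ribosomal protein genes differed little but mostly in the same direction. Ratios of replicate 2 to replicate 1, scaled by TMM, were read for the 84 members with at least 100 reads over both libraries and a mean level of 5 TPM. Of the 84, 75 were above 0, where 51.5% of the 11215 genes past the same filter were. The median log2 ratio was 0.084 over members, against 0.0042 over all genes and 0.033 over mitochondrial ribosomal protein genes. A log2 ratio of 0.32 in either direction was reached by 0 of the 84 members and by 3.29% of all genes (1.44% higher and 1.85% lower in replicate 2). Most members stood at 100 TPM or more, where few genes reached that ratio. Of the 1758 genes with a mean at that level, 10 were that far higher and 3 that far lower in replicate 2. Their median log2 ratio was 0.012, and 1000 of them were above 0. Since the pools are the only replicates, no p-value can be given, and the difference is the spread between libraries itself.

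The largest ratios towards replicate 2 were those of Rps12l1, a copy of Rps12, at 0.21, and of Rpl34, Rps18 and Rpl28, each at 0.18. Towards replicate 1 they were Rps3a2 at -0.27, Rpl5 at -0.08, Rpl15 at -0.07 and Rps27 at -0.06. Rps12l1 and Rps3a2 are copies, and Rpl5, Rpl15 and Rps27 are among the genes with most reads on copies. Of the other genes with most reads on copies, Rpl27a was at -0.06, but Rpl27 was at 0.16, Rpl12 at 0.08 and Rps23 at 0.01. Rpl28 had 48.6% and 49.7% of its combined reads on copies. Rps18 was at 701 and 790 TPM and Rpl34 at 488 and 545 TPM in replicates 1 and 2.

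The ratio was higher for shorter members. Members under 500 nt had a median log2 ratio of 0.14 (n = 18), those of 500 to 800 nt 0.095 (n = 37) and those over 800 nt 0.050 (n = 29). All genes of the same classes had 0.097, 0.067 and 0.00079. Across the 84 members Pearson's r of the ratio with log2 effective length was -0.37 and Spearman's rho -0.49, where genes are not independent replicates. The median was 0.084 for the large and 0.090 for the small subunit. Scaled by spike-in totals the medians were 0.28 over members and 0.20 over all genes, and 18 members were past 0.32 in either direction, as were 13.8% of all genes. Ttr and Folr1 were lower in replicate 2, as given above, while Kl was barely detected in both libraries. The part of length, spike-ins and choroid plexus RNA in the ratio was not tested.

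**Figure D5:**
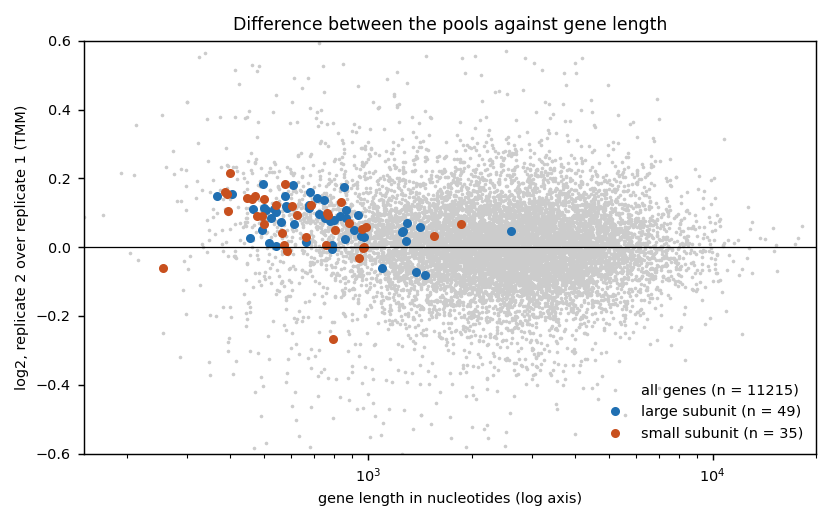
log2 ratio of replicate 2 to replicate 1 with TMM scaling against gene length on a log axis, for 11215 genes in grey and the 49 large-subunit and 35 small-subunit members in colour; 96 genes beyond 0.6 in either direction are not drawn. Most members lie above 0, and the shorter ones lie higher.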

How the data were processed

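Expected counts, TPM, FPKM and transcript percent of gene (a percent) were deposited by the authors per gene and transcript, with posterior means and SDs of the counts, for 2 libraries, on mm10 with GENCODE M4 models per the file headers and accompanying notes. Quantifier, aligner and strandedness were not given in the sources used here. FPKM was not analysed. Nothing in the labels says whether the 2 pools share parents, so their spread may be partly technical.

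Symbols from the reference table matched 42462 gene IDs (98.0%). Members, role lists and pathway lists were chosen with earlier results of these data known. The search for copies, its limits, the promoter motifs and the 20-base window were chosen after the data were seen. Named genes were the 4 highest and 4 lowest of each subunit, all paralog pairs, the role lists, the 4 largest pool ratios in each direction and at most 8 genes with a leading coding transcript under 60%; genes named beyond these were chosen after their values were seen.

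Copies were found with BLAST 2.17.0 (word size 11) of M21 coding sequences; a copy had a pseudogene type or an Rp or Gm symbol. Gene types and coordinates are those of M21 on the same assembly, GRCm38. Pool ratios used expected counts rounded to whole numbers, genes with 10 or more summed counts, 0.5 added, and TMM factors of edgeR 4.0.16. The computation of these ratios was checked on simulated counts with known changes, and no test between the pools was made. DESeq2 1.42.0 size factors, spike-in totals, TPM ratios, pseudocounts, filters and single libraries were the alternatives. Levels on a log scale used log2(TPM + 0.1). Python 3.11.15 and pandas 2.3.3 were used. Some items that the rule would name are not reported here.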

Additional observations from a re-analysis of the deposited data

How the results depend on the processing

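The share of TPM in members was 4.15%, and was 1.51% of expected counts, 5.13% among protein-coding genes and 5.33% with copies of canonical genes added; single libraries gave 4.05 to 4.25%. The large minus small difference of -0.08 had no settled sign: it was 0.091 with CPM, 0.026 for members at 1 TPM or more, 0.034 without the paralog list and 0.010 for canonical members, but -0.63 with means and -0.13 with copies added; single libraries gave -0.093 to -0.077. The excess over mitochondrial ribosomal protein genes was 1.88 with CPM and 1.84 with means, and 2.50 to 2.63 in single libraries. The median ratio of the 5 expressed pairs was 0.24, 0.99 with CPM and 0.14 to 0.34 in single libraries. With CPM, Rps27 over Rps27l was -1.12, Rpl22 over Rpl22l1 0.99 and Rpl7 over Rpl7l1 1.54. Rpl22 over Rpl22l1 was -0.0059 with posterior means and -0.0030 to 0.026 in single libraries. The pool ratio over members was 0.28 with spike-in totals, 0.064 with TPM, 0.075 with no filter and 0.073 with GC-bin centring. Past a log2 ratio of 0.32 in either direction were 18 members with spike-in totals, where 13.8% of all genes were, and 2 with no filter, which admits genes of very few reads. The leading coding transcript held 92.8% by reads. The cause of the other changes was not tested. Copies found at 95% and 99% identity held 1.22% and 1.199% of TPM, and were chosen after seeing the data, as were the values with copies added, on either length, and for canonical members. No paired analysis was possible because there was 1 group. With 2 libraries, differences within their spread cannot be resolved.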
